A study of Mus musculus with 6 samples.

Results

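The integrin genes of the aortic wall described here are Itga1, Itga5, Itga7, Itga8, Itga9, Itgav, Itgb1, Itgb3, Itgb5 and the integrin-like gene Itgbl1. These 10 members were taken by symbol from the 31055 features of a single-cell RNA sequencing table, in which the alpha and beta integrin subunits together number 26 genes. The cells were taken from the thoracic aorta, between its root and the arch, of 6 female mice that were 16 weeks old and on a 129 background. The labels name 4 controls (Tgfbr1+/+), of which 2 also carried Wnt2CRE and EGFP-L10a, a labelled ribosomal protein that traces cells of the cardiac neural crest (CNC), and 2 Loeys-Dietz syndrome (LDS) mice heterozygous for Tgfbr1M318R, a missense allele of a transforming growth factor-β (TGF-β) receptor that is carried by all cells of the mouse. The matrix holds 6 barcode suffixes, called libraries 1 to 6, and no label ties a suffix to a mouse. The LDS and control mice were therefore not compared, and every value is given by library and by cell group within a library.

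Integrins are cell surface receptors made of an alpha and a beta subunit that bind extracellular matrix outside the cell and, through talin and kindlin, the actin cytoskeleton inside it. In the arterial wall they carry load between elastic and collagen fibers and the contractile apparatus of vascular smooth muscle cells (VSMCs), and those containing the αv subunit release TGF-β from its latent complex. The alpha subunit sets much of the ligand choice: α1 binds collagens, α7 binds laminins, α5, α8 and αv bind RGD-containing proteins such as fibronectin, nephronectin and vitronectin, and α9 binds tenascin-C and osteopontin. The β1 subunit pairs with α1, α5, α7, α8, α9 and αv, while β3 and β5 pair with αv.

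After the filters on genes, UMIs and mitochondrial share, 24972 of 30716 barcodes were kept, from 1863 to 6395 in a library, with a median of 5572 to 9838 UMIs per cell. Libraries 2 and 6 had the fewest kept cells and the highest median UMIs per cell, 9838 and 9615. The integrin genes were left out of the variable genes used for clustering, so that they did not define the groups. Clusters were named from markers: 10258 cells were VSMC-like (Myh11, Acta2, Tagln), 13598 fibroblast-like (Lum, Dpt, Pdgfra), 568 endothelial-like and 443 leukocyte-like, and 105 cells stayed unnamed. VSMC-like cells made up 30.4% to 58.3% of a library. Endothelial-like cells numbered 10 (library 6) to 256 (library 4) in a library, and leukocyte-like cells 35 to 130. Subclustering gave 8555 VSMC1-like cells, with high Tes and Ptprz1, and 1686 VSMC2-like cells, with high Enpep and Notch3. A finer subcluster of 276 cells within VSMC1-like cells was picked because it had the highest Rgs5. Its 6 pericyte markers, which include Rgs5 itself, summed to 4202 to 8058 CPM, although Higd1b and Vtn were at 0 in it. Part of this sum was thus set by the choice, and the sum does not show a pericyte identity. It is called Rgs5-high.

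Levels are UMIs of a gene divided by all UMIs of the cell group in a library, in the usual unit CPM. A UMI marks 1 captured 3′ end of a transcript, so CPM does not scale with transcript length and was set side by side between genes. Where a cell type should lack a gene, low counts can still come from free RNA in the droplets. The 7 VSMC markers summed to 61097 to 67847 CPM in VSMC-like cells, 1337 to 5940 CPM in fibroblast-like cells and 405 to 3944 CPM in leukocyte-like cells. Among kept cells, 76 cell barcodes occurred in more than 1 library, against 1612 among all barcodes.

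The plot of levels shows that the 10 members fell into a few patterns over the cell groups. Itga8 and Itgb1 were the most abundant alpha and beta subunit of smooth muscle, Itga7 and Itga8 were low in all other classes, Itgbl1 was highest in fibroblast-like cells, and Itga1 had its highest median in endothelial-like cells. Itgav and Itgb5 were the members with the smallest difference between smooth muscle and fibroblast-like cells.

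**Figure D1:**
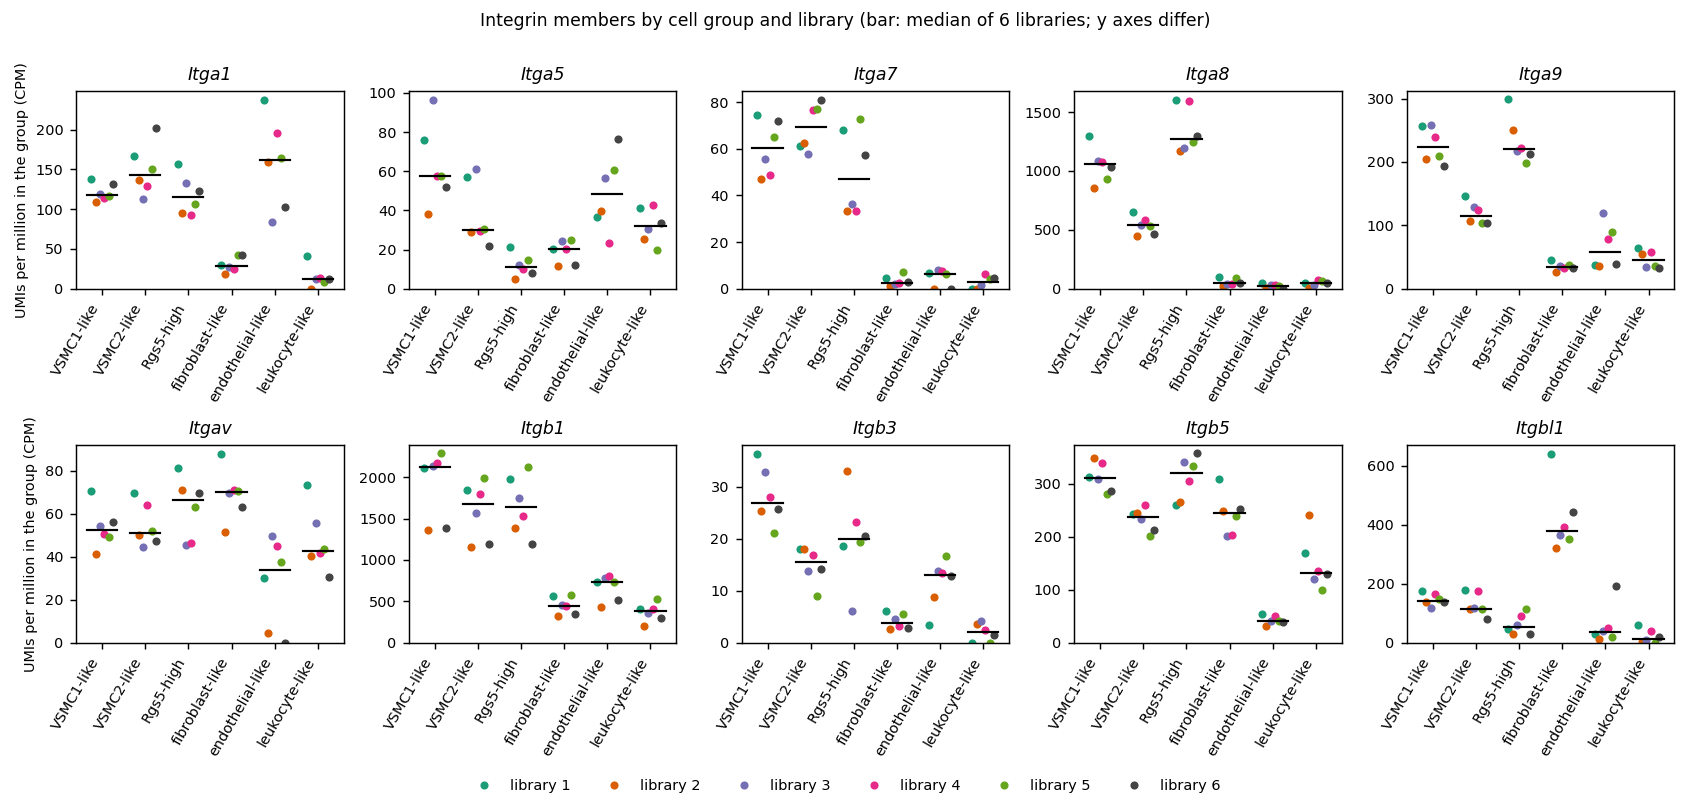
CPM (y axis, linear, from 0, different for each gene) of the 10 integrin members in 6 cell groups (x axis). Each point is 1 library and each bar the median of the 6 libraries; Itga8 lay between 443 and 1602 CPM in the 3 smooth muscle groups and below 100 CPM in all others.

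The sequences just upstream of 3 members stand for these patterns: Itga8 and Itgb1 for smooth muscle and Itgbl1 for fibroblast-like cells. Each run is the 250 bases before the gene's RefSeq start (GRCm38.p6), written along the gene's strand, with matches to the searched motifs in capitals. By GENCODE (GRCm38) Itga8 spans chr2:12106632-12301922 on the minus strand, Itgb1 chr8:128685654-128733200 and Itgbl1 chr14:123659971-123975618 on the plus strand. The Itgb1 window ends at its annotated gene start, while that of Itgbl1 overlaps the annotated gene. The window of Itga9, which is not printed, lies inside its annotated gene (chr9:118606690-118901003), since the RefSeq start used is further downstream. Itga8 was read on the minus strand at chr2:12301945-12302194, Itgb1 on the plus strand at chr8:128685404-128685653 and Itgbl1 on the plus strand at chr14:123659890-123660139.
Itga8: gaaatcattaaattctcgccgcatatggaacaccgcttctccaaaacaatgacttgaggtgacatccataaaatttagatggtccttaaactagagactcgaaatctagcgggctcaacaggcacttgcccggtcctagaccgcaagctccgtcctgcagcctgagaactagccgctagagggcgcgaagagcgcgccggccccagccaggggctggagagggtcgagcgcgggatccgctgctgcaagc
Itgb1: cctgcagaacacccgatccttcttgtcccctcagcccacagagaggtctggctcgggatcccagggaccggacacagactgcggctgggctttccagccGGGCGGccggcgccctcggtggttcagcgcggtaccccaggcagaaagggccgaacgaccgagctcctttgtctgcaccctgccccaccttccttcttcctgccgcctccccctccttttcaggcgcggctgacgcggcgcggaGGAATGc
Itgbl1: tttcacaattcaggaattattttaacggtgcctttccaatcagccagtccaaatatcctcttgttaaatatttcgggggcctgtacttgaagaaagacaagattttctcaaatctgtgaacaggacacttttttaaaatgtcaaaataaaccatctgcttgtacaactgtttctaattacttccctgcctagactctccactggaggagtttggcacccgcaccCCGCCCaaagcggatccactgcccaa

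Both strands were searched for 6 motifs: the CArG box (by name alone), the GC box GGGCGG, the TATA box TATAAA, the TEAD motif GGAATG, the GATA motif AGATAA and the AP-1 motif TGANTCA. The windows of 8 members were in the table. Of these, the GC box was present in Itga5 (2 matches), Itgb1 (1 match), Itgb5 (3 matches) and Itgbl1 (1 match), and 32.7% of all 32851 upstream windows of this length hold it. The TEAD motif occurred in Itgb1 only, 7 bases before the start, against 12.6% of all windows. The CArG box, TATA box, GATA and AP-1 motifs, held by 1.47%, 12.4%, 9.99% and 6.75% of windows, had no match in the 8 members' windows. The GC share was 56.4% for Itga8, 68% for Itgb1 and 42.4% for Itgbl1, beside a median of 52.4% over all windows. These matches describe letters in a window and were not tied to any level.

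Fibroblast-like cells were compared with VSMC-like cells within each library. Of the 10 members, 7 were lower in fibroblast-like cells in all 6 libraries, 2 were higher in all 6, and Itgb5 was lower in 5. Over the 8132 genes whose median CPM averaged at least 10 over both groups, 35.1% were lower and 36.6% higher in all 6 libraries. The median of the members' log2 ratios was -2.08 and that of all genes 0.01. The comparison is described by its direction and size in each library, with no test. With TMM factors the median of all genes moved to -0.11 and genes higher in fibroblast-like cells fell from 51.1% to 40.2% of those with 1 direction, while the same 7 members and Itgb5 were lower and the same 2 higher. Of 21 genes known to respond to tissue dissociation, 12 were higher and 1 lower in fibroblast-like cells in all 6 libraries, and their part in the result was not tested.

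Itga8, whose product forms α8β1, the receptor for nephronectin and fibronectin, was the most abundant alpha subunit of smooth muscle. In VSMC1-like cells it was at 1294, 851, 1088, 1077, 932 and 1037 CPM in libraries 1 to 6, and in fibroblast-like cells at 97.4, 23.0, 41.5, 37.8, 94.1 and 49.1 CPM. The ranges lay far apart, and the fibroblast-like level was highest in libraries 1 and 5, which also held the largest share of VSMC-like cells (51.0% and 58.3%). Leukocyte-like cells had 3.65 to 75.9 CPM of Itga8, a range that overlapped that of fibroblast-like cells. The log2 ratio of fibroblast-like over VSMC-like cells was -4.42 in the median and ran from -5.06 to -3.21. With every cell thinned to 3000 UMIs, 92.7% of VSMC1-like cells, 10.2% of fibroblast-like cells and 6.05% of leukocyte-like cells had an Itga8 UMI. The unthinned shares were 98.5%, 17.1% and 8.35%, at median depths of 7236, 6116 and 5623 UMIs. The share of free RNA in the fibroblast-like level was not tested.

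Itga7, the alpha subunit of the laminin receptor α7β1, was also a gene of the smooth muscle groups, at a lower level than Itga8. It lay between 47.1 and 74.7 CPM in VSMC1-like cells, with a median of 60.4, and between 57.8 and 80.9 CPM in VSMC2-like cells. Fibroblast-like cells had 1.05 to 7.07 CPM and endothelial-like cells 0 to 8.08 CPM, both overlapping the 0 to 6.32 CPM of leukocyte-like cells. The median log2 ratio of fibroblast-like over VSMC-like cells was -4.55, the lowest of the 10 members, with library 2 at -5.54 and library 5 at -3.24.

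Itga1, the alpha subunit of the collagen receptor α1β1, had its own highest median in endothelial-like cells, 162 CPM with a range of 84.3 to 237 CPM. VSMC2-like cells (113 to 202 CPM), VSMC1-like cells (109 to 138 CPM) and Rgs5-high cells (92.8 to 157 CPM) followed, and the range of each overlapped that of the next. Fibroblast-like cells lay apart from these groups at 18.9 to 42.6 CPM. The median log2 ratio of fibroblast-like over VSMC-like cells was -2.17, from -2.60 to -1.52.

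Itga9, whose product pairs with β1, was at 194 to 259 CPM in VSMC1-like cells and 25.9 to 45.2 CPM in fibroblast-like cells. Endothelial-like cells (35.3 to 119 CPM) and leukocyte-like cells (31.9 to 64.3 CPM) overlapped the fibroblast-like range. The log2 ratio of fibroblast-like over VSMC-like cells was -2.58 in the median and varied little, from -2.83 to -2.38.

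Itga5, the alpha subunit of the fibronectin receptor α5β1, was less tied to smooth muscle. It was at 75.8, 38.3, 96.6, 57.6, 57.5 and 51.8 CPM in VSMC1-like cells of libraries 1 to 6, highest in library 3 and lowest in library 2. Endothelial-like cells had 23.2 to 76.7 CPM and leukocyte-like cells 19.8 to 43.0 CPM, overlapping the VSMC1-like range, and fibroblast-like cells had a median of 20.2 CPM, with all 6 libraries below the VSMC1-like range. The median log2 ratio of fibroblast-like over VSMC-like cells was -1.76, from -1.95 to -1.09.

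Itgav, the alpha subunit shared by the receptors that activate latent TGF-β, was the only alpha subunit among the members that was higher in fibroblast-like cells. It lay between 51.5 and 87.8 CPM there, between 41.1 and 70.8 CPM in VSMC1-like cells and between 30.4 and 73.4 CPM in leukocyte-like cells. The ranges overlapped between libraries, yet within each library the fibroblast-like level was above the VSMC-like one, with a log2 ratio of 0.35 in the median, from 0.21 in library 6 to 0.50 in library 5. The median ratio stayed above 0 under all 14 alternatives, the lowest being 0.24 with TMM factors.

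Itgb1, the common beta subunit, had the highest median level of the 10 members in every smooth muscle group. In library 4 of the Rgs5-high cells Itga8 (1597 CPM) was above Itgb1 (1531 CPM). It was at 2106, 1360, 2129, 2165, 2286 and 1390 CPM in VSMC1-like cells of libraries 1 to 6 and at 564, 321, 450, 439, 579 and 353 CPM in fibroblast-like cells. Libraries 2 and 6 were the lowest in both groups, and also in VSMC2-like, Rgs5-high, endothelial-like and leukocyte-like cells. These are the libraries with the highest median UMIs per cell, and the part of depth in the difference was not tested. The log2 ratio of fibroblast-like over VSMC-like cells, taken within a library, ran from -2.23 to -1.88.

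Itgb3, which pairs with αv as the vitronectin receptor, was the lowest member in VSMC1-like cells, at 21.2 to 36.3 CPM. It was at 2.62 to 6.17 CPM in fibroblast-like cells and 0 to 4.17 CPM in leukocyte-like cells, and these ranges overlapped. In thinned cells, 8.15% of VSMC1-like, 0.962% of fibroblast-like and 0.526% of leukocyte-like cells had an Itgb3 UMI. Without thinning, the shares were 19.1%, 2.51% and 1.58%. The median log2 ratio of fibroblast-like over VSMC-like cells was -2.86.

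Itgb5, the other beta partner of αv among the members, differed less between VSMC-like and fibroblast-like cells than between these and endothelial-like cells. VSMC1-like cells had 281 to 349 CPM, fibroblast-like cells 202 to 308 CPM and endothelial-like cells 30.9 to 53.5 CPM. The log2 ratio of fibroblast-like over VSMC-like cells was 0.01 in library 1 and between -0.64 and -0.12 in the other 5 libraries. Without library 1, or with TMM or DESeq2 scaling, Itgb5 was lower in every library that remained.

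Itgbl1 encodes a secreted protein with the EGF-like repeats of a beta subunit, without the part that binds ligand or spans the membrane. It was at 640, 321, 365, 392, 351 and 444 CPM in fibroblast-like cells of libraries 1 to 6 and at 175, 140, 117, 165, 147 and 140 CPM in VSMC1-like cells. The ranges did not overlap, and the log2 ratio of fibroblast-like over VSMC-like cells was 1.48 in the median, from 1.24 to 1.87. Leukocyte-like cells had 0 to 59.7 CPM, below every VSMC1-like value. In thinned cells, 52.6% of fibroblast-like, 31.3% of VSMC1-like, 25.7% of VSMC2-like and 3.95% of leukocyte-like cells had an Itgbl1 UMI, against 64.8%, 53.3%, 46.6% and 5.87% unthinned.

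**Figure D2:**
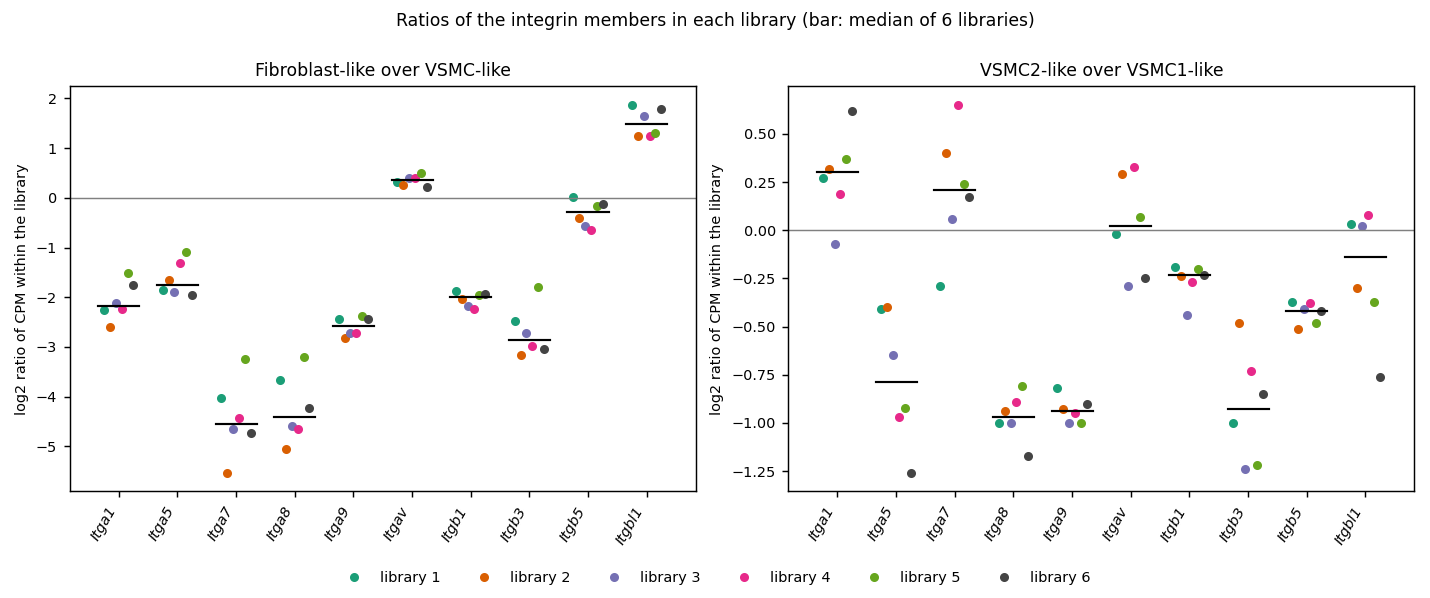
log2 ratio of CPM (y axis) for each integrin member (x axis), fibroblast-like over VSMC-like cells on the left and VSMC2-like over VSMC1-like cells on the right. Each point is 1 library and each bar the median; on the right, Itga5, Itga8, Itga9, Itgb1, Itgb3 and Itgb5 lie below 0 in all 6 libraries.

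The pool of alpha subunits was led by Itga8 in smooth muscle and was more evenly spread in fibroblast-like cells. The alpha subunits summed to 1345 to 1972 CPM in VSMC1-like cells, 870 to 1202 CPM in VSMC2-like cells and a median of 235 CPM in fibroblast-like cells. In VSMC1-like cells Itga8 made up 64.1% of the alpha subunit UMIs of all libraries together (62.7% to 65.6% by library), followed by Itga9 with 13.9% and Itga1 with 7.41%. In VSMC2-like cells Itga8 made up 53.1% (47.6% to 55.3%), so that the library ranges of both subtypes did not overlap. The share of Itga1 was 14.6% (11.4% to 20.9%) in VSMC2-like cells and 6.87% to 8.20% in VSMC1-like cells. That of Itga7 was 7.03% (5.08% to 8.35%) in VSMC2-like cells and 2.96% to 4.48% in VSMC1-like cells. The collagen and laminin receptor subunits thus took a larger share of the smaller pool in VSMC2-like cells.

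Fibroblast-like cells had no single leading alpha subunit. Itgav made up 28.9% of their alpha subunit UMIs (22.9% to 32.6% by library), Itga8 21.7% (at most 30.6%), Itga9 14.4% and Itga1 12.2%. Itgav was above Itga8 in libraries 2, 3, 4 and 6. Itga8 was above Itgav in library 1 (97.4 against 87.8 CPM) and library 5 (94.1 against 70.7 CPM). These 2 libraries held the largest share of VSMC-like cells, and the part of free RNA in this Itga8 was not tested. In endothelial-like cells Itga6, a laminin receptor subunit that is not among the members, held 33.4% with all libraries summed (12.5% to 41.7% by library) and Itga1 27.6%. Itga6 was not the leading subunit in libraries 3 and 6, where Itga9 (24.0%) and Itga1 (33.3%) held more. The shares of library 6 rest on 10 endothelial-like cells. In library 2, where the marks are the top 5% of doublet scores, 45.7% of the 35 endothelial-like cells were marked as doublets. In leukocyte-like cells Itgam, a subunit of myeloid cells, led with 28.7%. Itgb1 made up 85.2% of the beta subunit UMIs of VSMC1-like cells, 86.5% in VSMC2-like cells and 63.0% in fibroblast-like cells, where Itgb5 held 32.9%.

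**Figure D3:**
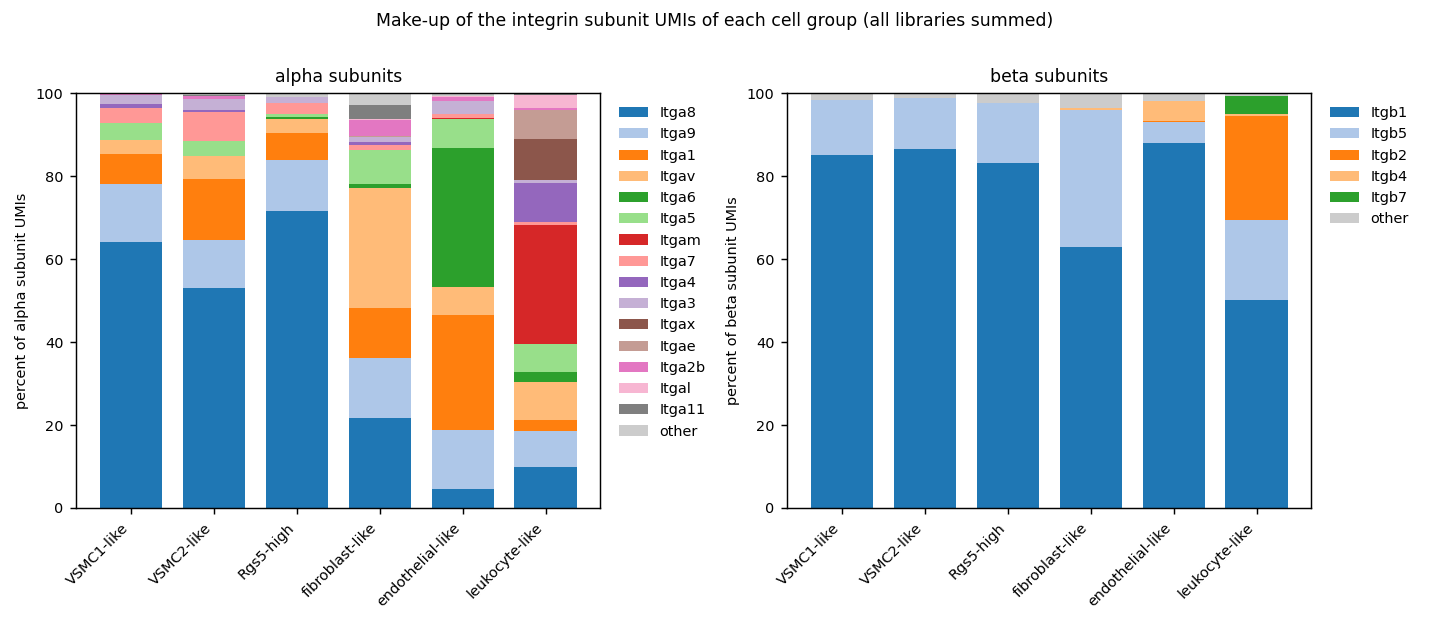
Percent of all alpha (left) and all beta (right) subunit UMIs (y axis) held by each subunit in 6 cell groups (x axis), with the 6 libraries summed and subunits under 3% in every group shown as other. Itga8 holds 64.1% of the alpha pool in VSMC1-like cells and 53.1% in VSMC2-like cells, and Itgb1 holds from 50.1% of the beta pool in leukocyte-like cells to 87.9% in endothelial-like cells.

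Other integrin subunits with at least 10 CPM in a cell group were few in the wall's resident cells. Itga3, a laminin receptor subunit, was at 34.9 to 43.0 CPM in VSMC1-like and 21.0 to 34.9 CPM in VSMC2-like cells, with the VSMC2-like level below in each library and a median log2 ratio of -0.42. Itga4 was at 8.82 to 22.4 CPM in VSMC1-like and 4.98 to 6.71 CPM in VSMC2-like cells, also lower in all 6, with a median log2 ratio of -1.33. Itgb8, another partner of αv, was at 16.9 to 26.6 CPM in fibroblast-like cells, 5.40 to 14.9 CPM in VSMC1-like cells and 14.5 to 53.0 CPM in Rgs5-high cells. Itga10, a collagen receptor subunit, was at 14.9 CPM in the median in Rgs5-high cells, where library 5 had none. Itga6 (178 CPM) and Itgb4 (46.0 CPM) were found in endothelial-like cells, and Itgb2 (182 CPM), Itgam (127 CPM), Itga4 (47.3 CPM), Itgax (37.4 CPM), Itgb7 (33.1 CPM), Itgae (28.2 CPM) and Itgal (13.6 CPM) in leukocyte-like cells, as medians. The median of Itga6 in leukocyte-like cells was 15.0 CPM. Itga3 also had medians of 20.4 CPM in endothelial-like cells (9.74 to 38.3 CPM) and 22.1 CPM in Rgs5-high cells.

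VSMC2-like cells were compared with VSMC1-like cells because the study divides aortic smooth muscle into these subtypes. Of the 10 members, Itga5, Itga8, Itga9, Itgb1, Itgb3 and Itgb5 (6 members) had a lower level in the VSMC2-like group of each library. None was higher in all 6. Of 7667 genes that reached a median of 10 CPM over the whole VSMC-like class, 22.1% were lower and 11.8% higher in all 6 libraries. With the size factors of DESeq2, genes higher in VSMC2-like cells made up 46.2% of those with 1 direction, against 34.7% with plain totals, and the same 6 members were lower. The median of the members' log2 ratios was -0.32 and that of all genes -0.06.

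Itga8, Itga9, Itgb3 and Itga5 had the largest differences. Itga8 was at 647, 443, 543, 579, 532 and 461 CPM in VSMC2-like cells of libraries 1 to 6, below every VSMC1-like value, with a log2 ratio of -0.97 in the median and a narrow range of -1.17 to -0.81. Itga9 was at 104 to 146 CPM against 194 to 259 CPM, also without overlap, with a log2 ratio of -0.94 in the median and at or below -0.82 in each library. Itgb3 was at 9.07 to 18.1 CPM against 21.2 to 36.3 CPM, with a log2 ratio of -0.93 from -1.24 to -0.48. These 3 genes thus had ranges over libraries that did not meet.

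Itga5 was at 57.1, 28.9, 61.4, 29.3, 30.3 and 21.6 CPM in VSMC2-like cells. Its ranges in both subtypes overlapped, because these values of libraries 1 and 3 lay within the VSMC1-like range of 38.3 to 96.6 CPM. The log2 ratio was still below 0 in each library, with -0.79 in the median and -1.26 in library 6. Itgb5 was at 201 to 260 CPM against 281 to 349 CPM, without overlap, as for Itga8, Itga9 and Itgb3. Its log2 ratio was -0.42 and ran from -0.51 to -0.37. Itgb1 was at 1153 to 1984 CPM against 1360 to 2286 CPM, and the log2 ratio was -0.23, from -0.44 to -0.19. Itgb1 and Itgb5 thus had median ratios nearer to 0 than Itga8, Itga9, Itgb3 and Itga5.

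Itga1, Itga7, Itgav and Itgbl1 had no single direction. The log2 ratio of Itga1 was 0.30 in the median and above 0 in 5 libraries, with -0.07 in library 3. That of Itga7 was 0.21 and above 0 in 5 libraries, with -0.29 in library 1. Without library 3 Itga1 was higher in all remaining libraries, and without library 1 Itga7 was. Itgav had a log2 ratio of 0.02, from -0.29 to 0.33, and Itgbl1 one of -0.14, from -0.76 to 0.08, each above 0 in 3 libraries and below 0 in 3.

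Other values moved with the VSMC2-like group. Of 10 fibroblast markers, 8 were higher and 1 lower in VSMC2-like than in VSMC1-like cells in all 6 libraries. The list summed to 1400 to 8766 CPM against 1064 to 2124 CPM. Of the 21 dissociation genes, 19 were higher in all 6 and none lower, with a median log2 ratio of 0.84. The share of cells marked as doublets was 9.73% in VSMC2-like and 1.30% in VSMC1-like cells. A VSMC2-like subcluster of 161 cells with the leading genes Cygb, Abca8a and Clec3b had 77.6% of its cells marked and 12115 to 24282 CPM of fibroblast markers. Without it, 7 members had a lower VSMC2-like level in each library, the added one being Itgbl1 with a median log2 ratio of -0.37, and Itga1 was higher in all 6 with a median of 0.38. The part of the dissociation genes in the result was not tested.

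Within VSMC-like cells the finer subclusters, each called here by its 3 leading genes, spread the members further. In the map of subclusters, the 564 cells of Olfr558/Acta1/Nrip2, of which 561 were VSMC2-like, had the lowest Itga8 of the smooth muscle subclusters, at 407, 309, 431, 481, 364 and 335 CPM in libraries 1 to 6. The other large VSMC2-like subcluster, Col8a1/Ankrd1/Comp with 987 cells, had 506 to 756 CPM, above all of these. The same order without overlap held for Itga9 (73.4 to 113 against 116 to 160 CPM), Itgb5 (129 to 224 against 244 to 303 CPM) and Itgbl1 (29.0 to 83.2 against 112 to 217 CPM). Itga5 was at 7.91 to 32.7 against 32.6 to 70.6 CPM, with ranges that just met. Itga1 (119 to 185 against 145 to 217 CPM) and Itga7 (67.3 to 118 against 59.0 to 77.7 CPM) overlapped. The fibroblast markers summed to 584 to 843 CPM in Olfr558/Acta1/Nrip2, below every VSMC1-like value, and 0.355% of its cells were marked as doublets. The dissociation genes summed to 25380 to 47574 CPM in it and to 16981 to 27965 CPM in Col8a1/Ankrd1/Comp.

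**Figure D4:**
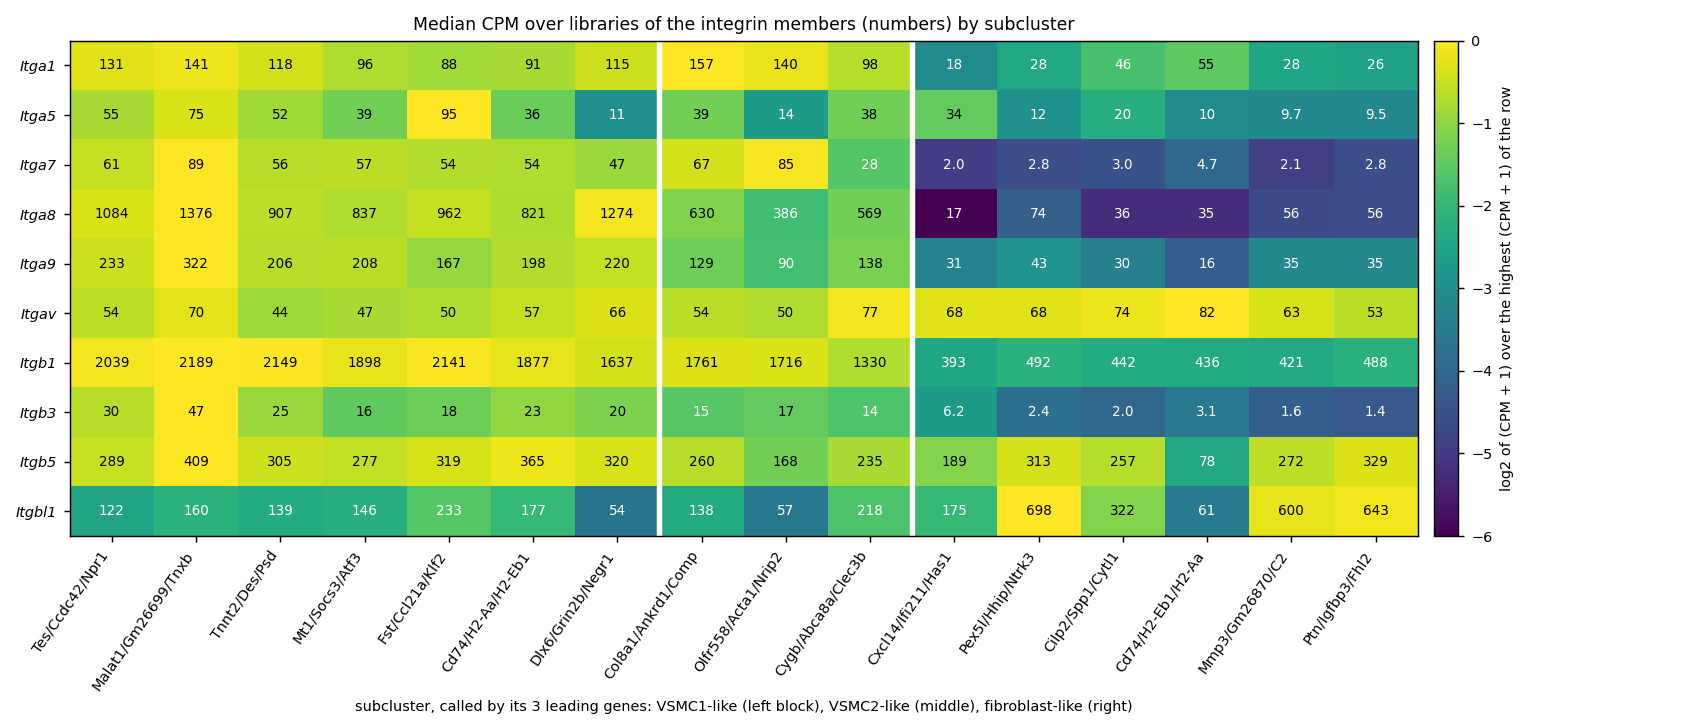
Median CPM over libraries (numbers in the cells) of each integrin member (rows) in 10 VSMC-like and 6 fibroblast-like subclusters (columns, called by their 3 leading genes), shaded by the log2 of CPM + 1 relative to the highest of the row. Itga8 is lowest among VSMC-like subclusters in Olfr558/Acta1/Nrip2 (386 CPM), and Itgbl1 is highest in Pex5l/Hhip/Ntrk3 (698 CPM).

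Rgs5-high cells, whose leading genes were Dlx6, Grin2b and Negr1, paired high Itga8 with low Itga5 and Itgbl1. Itga8 was at 1602, 1173, 1198, 1597, 1250 and 1297 CPM in libraries 1 to 6, a range that overlapped the upper end of VSMC1-like cells. Itga5 was at 4.73 to 21.3 CPM, below the 38.3 to 96.6 CPM of VSMC1-like cells, and rested on 29 UMIs. Itgbl1 was at 28.4 to 116 CPM, below the 117 to 175 CPM of VSMC1-like cells. Itga8 made up 71.5% of the alpha subunit UMIs of Rgs5-high cells. Leaving these cells out changed neither count of members between VSMC2-like and VSMC1-like cells.

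In Fst/Ccl21a/Klf2 Itga5 lay between 70.2 and 142 CPM, with a median of 94.8. This subcluster also had the highest median of Itgbl1 among VSMC1-like subclusters, with 194 to 264 CPM. The 1685 cells of Malat1/Gm26699/Tnxb had the highest medians of Itga8 (1376 CPM), Itga9 (322 CPM), Itga7 (88.6 CPM), Itgb3 (46.7 CPM) and Itgb5 (409 CPM). These cells were shallower, with a median of 4092 UMIs and 6.51% mitochondrial UMIs, against 7236 UMIs and 4.16% over all VSMC1-like cells.

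Among fibroblast-like clusters, Itgbl1 separated the largest ones. It was at 860, 538, 686, 786, 710 and 658 CPM in Pex5l/Hhip/Ntrk3 (4534 cells), at 516 to 940 CPM in Mmp3/Gm26870/C2 and at 423 to 814 CPM in Ptn/Igfbp3/Fhl2. It was at 102 to 268 CPM in Cxcl14/Ifi211/Has1 (5124 cells) and at 35.9 to 63.8 CPM in Cd74/H2-Eb1/H2-Aa (829 cells). These high and low clusters did not overlap, and Cilp2/Spp1/Cytl1 had 252 to 546 CPM. The cells of Cd74/H2-Eb1/H2-Aa passed 8 of 10 fibroblast markers but held other content: their glia markers summed to 207 to 3082 CPM and their leukocyte markers to 357 to 2169 CPM, against at most 177 and 119 CPM in the other fibroblast-like clusters. Their fibroblast markers summed to 19579 to 28138 CPM, below the 31459 CPM or more of the others. The part of this content in the integrin values of that cluster was not tested. Itgb5 followed a like order, with 280 to 337 CPM in Pex5l/Hhip/Ntrk3, 141 to 225 CPM in Cxcl14/Ifi211/Has1 and a median of 77.9 CPM in Cd74/H2-Eb1/H2-Aa.

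Itga1 and Itga5 had other orders in these clusters. Itga1 was highest in Cd74/H2-Eb1/H2-Aa, at 40.4 to 82.6 CPM, and lowest in Cxcl14/Ifi211/Has1, at 8.72 to 25.6 CPM. Itga5 was highest in Cxcl14/Ifi211/Has1, at 13.6 to 39.8 CPM, against 7.41 to 14.1 CPM in Pex5l/Hhip/Ntrk3. Itgb3 was also highest in Cxcl14/Ifi211/Has1, at 5.00 to 16.3 CPM. Itgav overlapped in all 6 fibroblast-like clusters, with medians from 52.9 to 82.4 CPM.

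The genes that act with the integrins were followed in 2 lists. Of 30 ligands, 25 had a median of at least 10 CPM in VSMC-like cells. Of these, 7 were lower and 5 higher in VSMC2-like than VSMC1-like cells in all 6 libraries, against 22.1% and 11.8% of all genes. The median log2 ratio of these ligands was -0.09. The lowest were Tnc (tenascin-C, a ligand of α9β1; log2 ratio -1.82), Postn (periostin; -1.65) and Npnt (nephronectin, the ligand of α8β1; -1.19). Npnt was at 320 CPM in VSMC2-like and 700 CPM in VSMC1-like cells in the median, and its log2 ratio ran from -1.26 to -0.99. Tnc was low throughout, at 3.39 and 13.1 CPM.

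The highest ligands in VSMC2-like cells were Thbs1 (thrombospondin-1; 4.08), Tgfb3 (a TGF-β ligand, 1.32) and Cyr61 (a matricellular integrin ligand, 0.79) on the log2 scale. Thbs1 was at 348 CPM in VSMC2-like and 18.5 CPM in VSMC1-like cells in the median. In fibroblast-like against VSMC-like cells, 11 of 27 ligands were higher and 9 lower in all 6 libraries, against 36.6% and 35.1% of all genes. Npnt had 16.2 CPM in fibroblast-like and 629 CPM in VSMC-like cells, a log2 ratio of -5.27, beside the -4.42 of its receptor subunit gene Itga8.

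Of 40 genes of the adhesion complex and integrin partners, 33 had a median of at least 10 CPM in VSMC-like cells. In VSMC2-like cells 11 were lower and 5 higher than in VSMC1-like cells in all 6 libraries, against 22.1% and 11.8% of all genes. The median log2 ratio of the 33 genes was -0.14. The lowest were Nedd9 (a docking protein; -0.68), Tns1 (tensin-1, which links integrins to actin; -0.54) and Src (a kinase; -0.43), and the higher ones included Lims1 (an adapter of integrin-linked kinase; 0.87) and Actn4 (an actin cross-linker; 0.39). In fibroblast-like cells 19 of 35 were lower and 10 higher than in VSMC-like cells in all 6 libraries. For all genes the shares were 35.1% and 36.6%. The median log2 ratio of the 35 genes was -0.75. Filamin A (Flna) had the lowest log2 ratio there, -3.53.

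**Figure D5:**
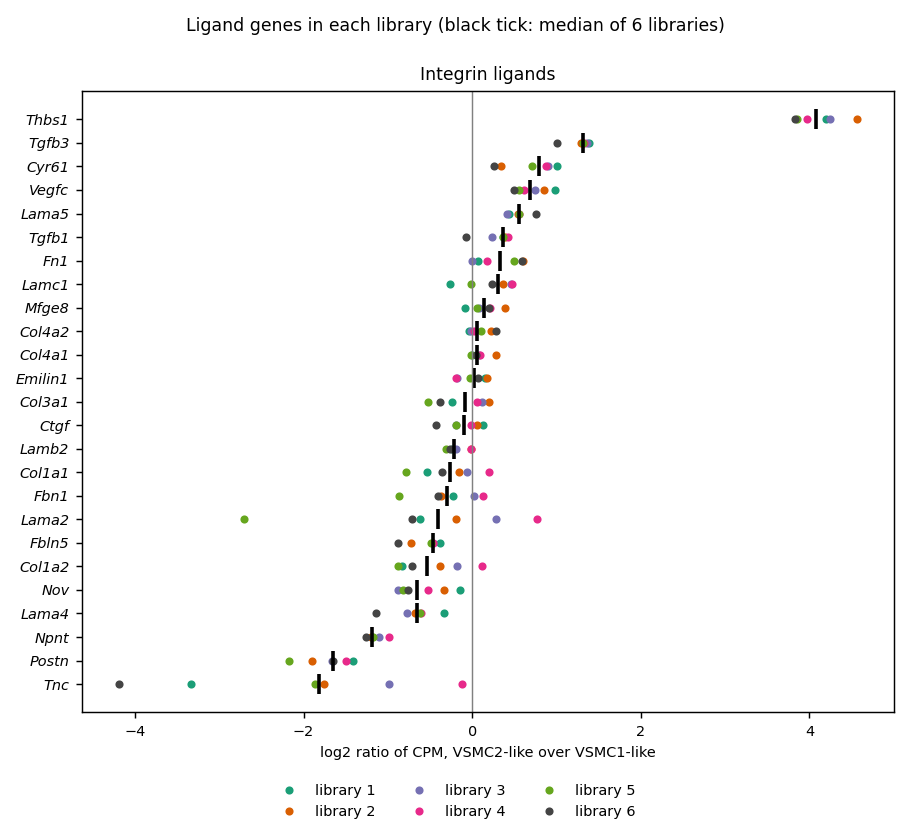
log2 ratio of CPM in VSMC2-like over VSMC1-like cells (x axis) for 25 integrin ligands (y axis), sorted by the median. Each of these ligands had a median of at least 10 CPM in VSMC-like cells. Each point is 1 library and each black tick the median; Thbs1 lies between 3.83 and 4.57 and Npnt between -1.26 and -0.99.

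The genes whose pattern was most like that of each member were sought over 30 points (6 libraries by VSMC1-like, VSMC2-like, fibroblast-like, endothelial-like and leukocyte-like cells) among 10300 genes outside the integrin family. The points share libraries and cell groups, so Pearson's r of log2(CPM + 1) is a description and has no p. Itga8 was most like Adcy5 (r = 0.98), Myl9 (0.97) and Lmod1 (0.97), and Itga7 like Slc22a3 (0.97), Myocd (0.97) and Map3k20 (0.96). Myl9 is a myosin light chain, Lmod1 an actin nucleator of smooth muscle and Myocd a cofactor of serum response factor. Itgb1 was most like Ppp1cb (0.97), Inpp5a (0.96) and Pdlim5 (0.96), Itga1 like Hspb1 (0.95), Cds2 (0.95) and Utrn (0.94), and Itga9 like Lrrfip1 (0.92), Lancl3 (0.90) and Ppef1 (0.90). Itgbl1 was most like Cbx5 (0.94), Scara3 (0.94) and Fgfr1 (0.93), and Itgb5 like Pmepa1 (0.91), Pon3 (0.88) and Fam110b (0.88). Itgav was most like Crls1 (0.95), Mib2 (0.94) and Dirc2 (0.93), and Itgb3 like A430105I19Rik (0.92), Snrnp27 (0.89) and Ppil1 (0.89). The lowest values were those of Itga5, with Dusp3 (0.78), Krt18 (0.77) and Tes (0.75).

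The members also differed in how much they varied between libraries. In VSMC1-like cells the highest library was 2.52 times the lowest for Itga5, against a median of 1.44 over 7646 genes, and 96.1% of genes varied less. Itgb5 (1.24 times), Itga1 (1.27 times) and Itga9 (1.33 times) varied less than the median gene. Itga8 varied 1.52 times in VSMC1-like cells and Itgb1 1.68 times. In VSMC2-like cells Itga5 again varied most among the members, 2.84 times, against a median of 1.63. In VSMC1-like cells library 2, with the highest median UMIs per cell, was the lowest for Itga1, Itga5, Itga7, Itga8, Itgav and Itgb1. Other libraries were the lowest for Itga9, Itgb3, Itgb5 and Itgbl1. The part of depth in this was not tested. Whether libraries with high or low values share a genotype could not be examined, since no label ties a library to a genotype.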

How the data were processed

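Per the labels and the study's methods, cells of the aortic root and ascending aorta of 6 mice were freed by enzymes, sorted as cells stained for DNA and not by propidium iodide, captured with 10x Genomics 3′ v3 chemistry and aligned to mm10 with Cell Ranger 6. The deposited matrix holds raw UMI counts, not normalized by the authors. Cells with over 1000 and under 5000 genes, over 1500 and under 25000 UMIs and under 20% mitochondrial UMIs were kept. Cells were clustered with Seurat 5.3.0 (SCTransform, RPCA integration, 30 components). Resolution was 0.25 for classes, 0.05 for subtypes and 0.3 for finer subclusters, and 129 integrin, ligand, adhesion, dissociation and naming genes were kept out of the subclustering. Scrublet in scanpy 1.11.5 marked doublets, or the top 5% of scores where it marked under 0.5%. UMIs were summed by library and group, and log2 ratios used a prior of 0.5 UMI. A gene counted in a comparison where all 6 libraries had 1 sign. Shares of cells cover counting error only. TMM (edgeR 4.0.16) and DESeq2 1.42.0 gave alternative scalings. The scripts were tested on simulated data. Members and lists were chosen with earlier results of these data known. Named were the 10 members, other subunits with at least 10 CPM in a group, the 3 highest and 3 lowest genes of each partner list in VSMC2-like cells (1 of them, and 1 subcluster, are not reported here) and the 3 genes most like each member; other list genes were chosen after their values were seen. Upstream sequences are from RefSeq.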

Additional observations from a re-analysis of the deposited data

How the results depend on the processing

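Between fibroblast-like and VSMC-like cells, the same 2 members were higher under every alternative and 7 or 8 were lower, Itgb5 being the added one. Between VSMC2-like and VSMC1-like cells, 6 or 7 members were lower under every alternative, and Itgbl1 was the added one. The count of members higher in VSMC2-like cells was 0 and became 1, Itga1, with cells clustered from log-normalized counts without integration, with cells marked as doublets removed, at the next finer resolution, with the mean of the CPM of single cells and, added after seeing the data, without the doublet-rich subcluster. Leaving out 1 library in turn gave 0 to 1, with Itga7 without library 1 and Itga1 without library 3. Of 320 recomputed median ratios of single members, 314 moved by less than the spread between libraries, 6 moved by more, and none of a member with 1 direction changed sign. Where all genes or log-normalized counts were used, 3 subclusters came out at the lowest resolution, and those other than VSMC2-like were joined. No paired analysis was possible because no label ties a library to a replicate number of the control and LDS mice, and because the results come from no test. The cell groups themselves were set against each other within each library. Depth limits Itgb3 most, with 195 UMIs in VSMC2-like cells, and doublet marks rest on scores alone in libraries 2 and 5.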

Other observations

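The 105 unnamed cells, led by Ngp, Camp and Cd3e, had Itgb3 at 5.57 to 84.8 CPM over the 6 libraries, from 13 UMIs in all, and Itgav at 0 to 44.3 CPM. Another leukocyte-like cluster of 38 cells held 35 cells of library 6, so that the leukocyte-like values of that library describe a different mix of cells.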
